A study of Mus musculus with 35 samples.

Results

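The VEGF system was described through 7 genes, taken by name, with earlier results of these data known: the ligands Vegfa, Vegfb, Vegfc and Pgf and the receptors Kdr (VEGFR2), Flt1 (VEGFR1) and Flt4 (VEGFR3). All 7 were found, each under 1 identifier, among the 53465 genes of the bulk table, and all 7 passed the filter on low values. The samples came from mouse brain at E14.5. Neural, mural (pericyte and smooth muscle), endothelial and microglial cells of wild-type brains were sorted by surface proteins and sequenced in bulk, with 3 libraries per population, labelled N, Mu, Ec and Mi with a replicate number (such as Ec-340, Ec-343 and Ec-346). Single cells were sequenced by mCEL-Seq2, a protocol that counts transcripts by molecular identifiers, from wild-type brains on plates 1 to 3 (11 libraries) and from Mof knockout brains on plates 4 to 6 (12 libraries). The wild-type wells carry their sort gate (PECAM1 and CD102 for endothelium, PDGFRb for mural cells, CD11b and CD45 for microglia). The knockout wells carry no gate here, and the knockout allele, any Cre driver and the strain are not given in the sources used here. Bulk populations and wild-type cells were each taken from 3 brains, but the labels tie no library to a brain and the number of knockout brains is not given in the sources used here, so p-values measure the spread between these samples.

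VEGF ligands are secreted dimers that bind receptor tyrosine kinases, most of them on endothelium. KDR carries most of the mitogenic and permeability signal of VEGF-A. FLT1 binds VEGF-A tightly but signals weakly and acts largely as a decoy, whereas VEGF-B and placental growth factor (the product of Pgf) bind FLT1 and not KDR. FLT4 is the receptor of VEGF-C, known best from lymphatic vessels but also present on growing blood vessels. In the embryonic brain, VEGF-A made by neural progenitors draws vessels inward from the plexus that surrounds it.

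The bulk libraries held 17638358 to 98414914 reads on genes, and 1 read was worth 0.264 to 1.77 normalized counts. The neural libraries were made with TruSeq and the others with SMART-Seq and Nextera XT kits, so kit and population cannot be told apart in any contrast with neural cells. The 10 defining markers of each population summed highest in its own libraries. Neural markers also summed to 39250 to 71516 normalized counts in the mural libraries, against 170581 to 184069 in the neural and 27169 to 30417 in the endothelial ones. Most of the mural sum came from Fabp7 (26942 in mural and 7602 in neural libraries) and Sox11 (18062 and 38699), while the neuronal markers Dcx (489 and 34247), Tubb3 (1109 and 31995) and Neurod2 (97.8 and 6994) were low. Of the single cells over 1500 transcripts, 686 lay in the 4 wild-type gates (123 neural, 210 mural, 225 endothelial and 128 microglial) and 882 on the knockout plates. Another 23 wild-type cells, sorted with medium or low PDGFRb signal, entered no comparison between gates but were clustered with the rest, 15 as neural-like and 8 as mural-like. The endothelial gate of plate 3 stood apart, with 13 cells and mural markers at 3067 CPM (transcripts of a gene or list in every 1000000 transcripts of the same cells). In bulk, fewer expressing cells and less RNA per cell cannot be told apart.

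Among the ligands, each population had its own leading transcript when levels were taken per kilobase of exon. Pgf led in mural cells, Vegfa in neural cells, Vegfb in microglia and Vegfc in endothelium. Of the 7 members, limma called 1 over 10-fold above the mean of the other populations in the neural libraries (Vegfa), 1 in the mural (Pgf), 3 in the endothelial (Kdr, Flt1 and Flt4) and 0 in the microglial ones. Over all 19765 genes tested, the same call was made for 13.8% in neural, 4.99% in mural, 6.28% in endothelial and 8.27% in microglial libraries. For microglia the count was also 0 with edgeR and DESeq2 on whole reads, and no member was both higher there and under an unadjusted limma p of 0.05, with Vegfb nearest at p = 0.0683.

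**Figure D1:**
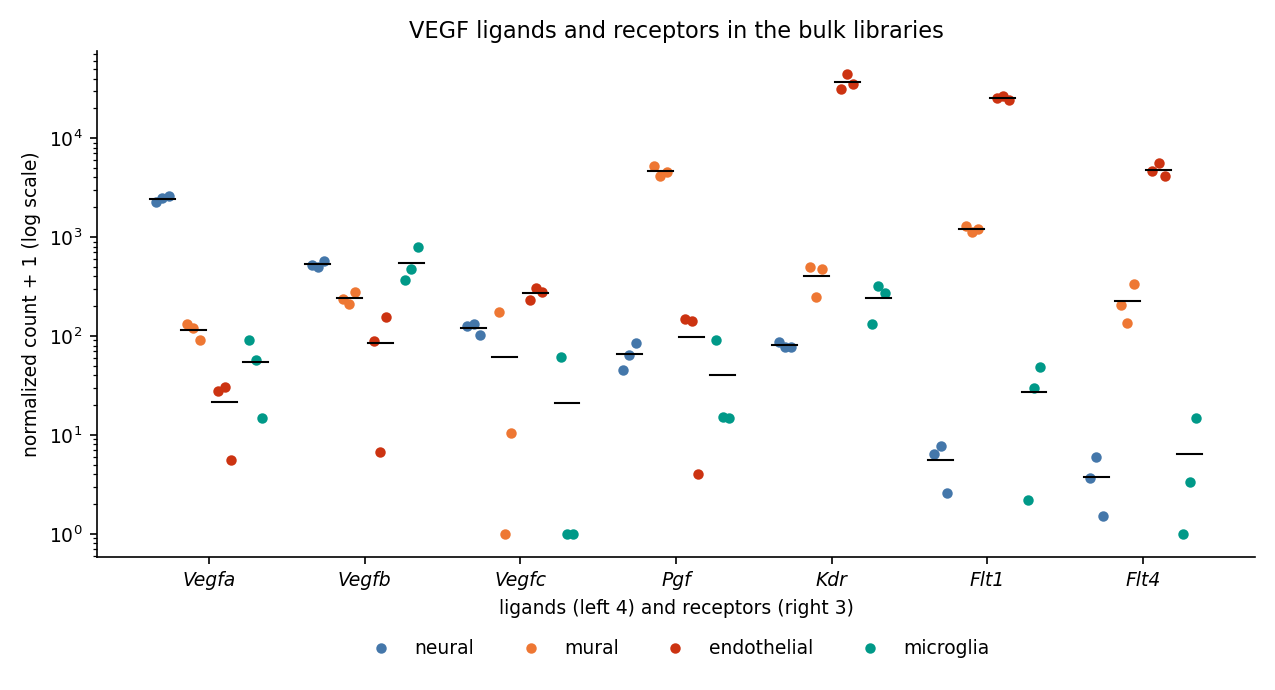
Normalized count + 1 (log axis) of the 4 ligands and 3 receptors in the 12 bulk libraries, coloured by population, with a bar at each mean (n = 3). The mural points of Flt1 (1124 to 1296) and Flt4 (135 to 332) lie below the endothelial points and above all neural and microglial ones, while those of Vegfb lie close to its neural and microglial points.

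Pgf (ENSMUSG00000004791, GRCm38 chr12:85166635-85177790, minus strand) was a transcript of mural cells. Its normalized counts were 5228, 4099.8 and 4522 in Mu-340, Mu-343 and Mu-346, the order used for all members. They were 149, 139 and 3.02 in the endothelial, 44.1, 63.7 and 84.8 in the neural and 90.3, 14.2 and 13.8 in the microglial libraries. Every mural library lay above every other library, and the other 3 populations overlapped. On the log2(normalized count + 1) scale used for all bulk differences, which understates the change of low values, the mural mean was 6.76 above the mean of the other populations (SE 1.01, limma adjusted p = 0.000355, n = 3 per population). The mural mean was 6.71 above the endothelial one (SE 1.23, limma adjusted p = 0.00213). Its endothelial level rested on few molecules, from 2 reads in Ec-346 to 98 in Ec-343. Without Ec-346 the difference was 4.99 from endothelium (limma adjusted p = 0.000799) and 6.19 from the mean of the rest (limma adjusted p = 2.37e-05).

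Vegfb (ENSMUSG00000024962, GRCm38 chr19:6982473-6987651, minus strand) was spread over 3 populations and low in endothelium. Its normalized counts were 523, 500.0 and 566 in the neural, 363, 474 and 783 in the microglial, 236, 208 and 280 in the mural and 88.6, 5.68 and 155 in the endothelial libraries. The neural and microglial libraries overlapped, the mural ones lay below both, and all 3 endothelial ones were lowest. The endothelial mean was 3.15 below the mean of the other populations (SE 0.75, limma adjusted p = 0.00651). The neural mean was 3.55 above the endothelial one (SE 0.92, limma adjusted p = 0.00669) and the microglial mean 11.3-fold above it (limma adjusted p = 0.0129). The contrast of mural with endothelial libraries was not called. The neural and microglial means differed by 0.05 (SE 0.92, limma adjusted p = 0.976), and this sign changed with the normalization. Neither reached a call against the mean of the rest, with 1.58 in neural cells (limma adjusted p = 0.0859) and 1.52 in microglia (limma adjusted p = 0.123). Ec-343 held 4 reads of Vegfb. Without this library the neural mean was 2.16 above the endothelial one (limma adjusted p = 0.000905), and the endothelial difference from microglia was -2.12 (limma adjusted p = 0.00190). Against the mean of the rest the neural difference was then 1.12 (limma adjusted p = 0.00613) and the microglial one 1.06 (limma adjusted p = 0.0120), and both were also called without Ec-346 (limma adjusted p = 0.0267 and 0.0418). The endothelial difference from microglia was lost without Mi-346 (limma adjusted p = 0.0503), and the one from the mean of the rest without the neural libraries (limma adjusted p = 0.0524).

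Vegfa (ENSMUSG00000023951, GRCm38 chr17:46016993-46032369, minus strand), the main ligand of KDR, was highest in neural cells. It gave 2266, 2479 and 2594 normalized counts in the neural, 130, 119 and 90.2 in the mural, 90.3, 55.7 and 13.8 in the microglial and 26.6, 29.8 and 4.52 in the endothelial libraries. Every neural library was above every other library. The neural mean was 5.82 above the mean of the rest (SE 0.63, limma adjusted p = 1.43e-05), and the mural mean was 2.75 above the endothelial one (SE 0.77, limma adjusted p = 0.0209). The part of the neural marker transcripts in the mural level was not tested in bulk.

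Vegfc (ENSMUSG00000031520, GRCm38 chr8:54077606-54187096, plus strand), the ligand of FLT4, gave 232, 301 and 276 normalized counts in the endothelial and 124, 131 and 102 in the neural libraries. It was uneven elsewhere, at 173, 0 and 9.39 in the mural and 60.6, 0 and 0 in the microglial ones. All endothelial libraries lay above all others, but the difference from the mean of the rest, 3.91 (SE 1.51), missed the threshold (limma adjusted p = 0.0577). With the replicate number as a block it was 3.91 again and passed (limma adjusted p = 0.0366), though no source used here says that a number marks a brain. It passed with Mu-340 left out (4.55, limma adjusted p = 0.0167) and with Mi-340 left out (4.57, limma adjusted p = 0.0149), the libraries that held most of the mural and microglial reads.

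Taken per kilobase of exon and as a share of the 4 ligands, the 4 ligands gave each population its own make-up. Pgf made up 88.8% ± 1.06 (SD, n = 3) of the mural ligand level and Vegfb 8.45% ± 1.38. In microglia Vegfb made up 89.1% ± 12.7, with the lowest library at 74.6%. In neural cells Vegfa gave 58.7% ± 1.25 and Vegfb 34.0% ± 1.60. Endothelium was the most variable: Vegfc gave 55.6% ± 11.2, Vegfb 24.8% ± 22.0 and Pgf 17.2% ± 14.51. The summed ligand level was highest in mural cells, 1792 ± 242 normalized counts per kilobase, followed by 972 ± 54.2 in neural cells, 371 ± 109 in microglia and 200.1 ± 16.4 in endothelium. Shares within a library carry no test, since the 4 sum to the whole.

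**Figure D2:**
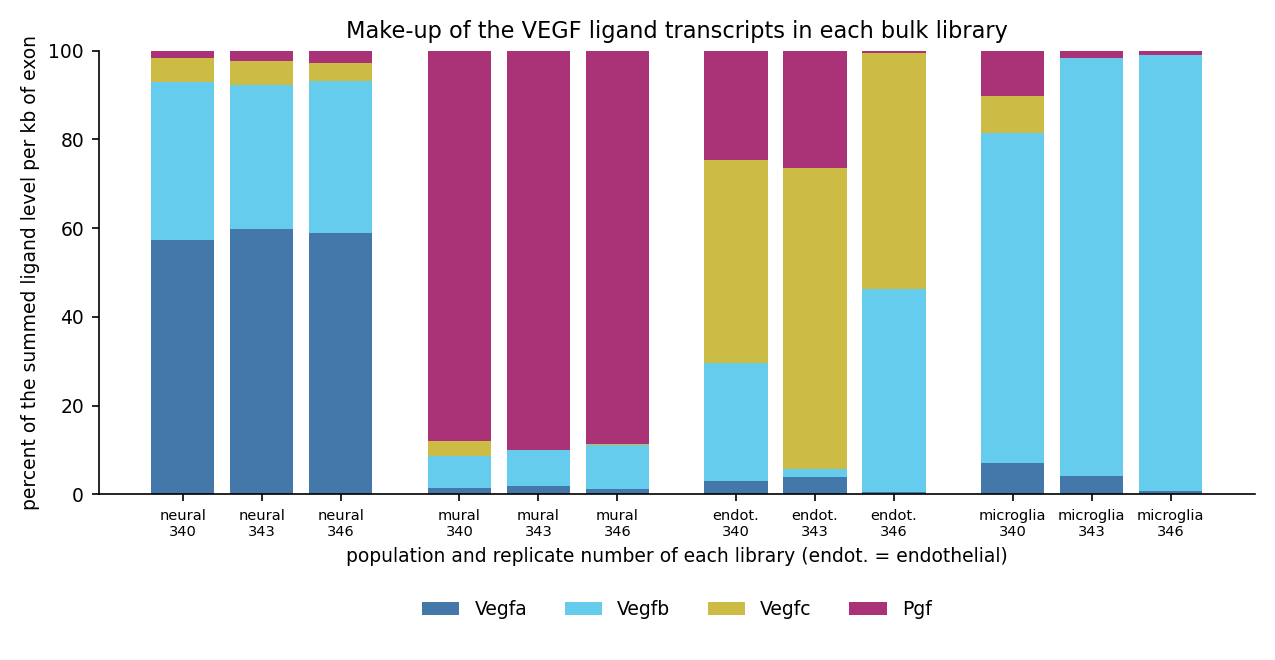
Share of each ligand in the summed ligand level per kilobase of exon, 1 stacked bar for each of the 12 bulk libraries (endot. = endothelial). Pgf fills 87.9% to 90.0% of each mural bar and Vegfb 74.6% to 98.4% of each microglial bar, while the 3 endothelial bars differ among themselves.

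Flt1 (ENSMUSG00000029648, GRCm38 chr5:147561604-147726011, minus strand) was an endothelial transcript with a second, lower level in mural cells. Its normalized counts were 25709, 26662.5 and 24010.5 in the endothelial and 1296, 1124 and 1206 in the mural libraries. They were 1.19, 28.5 and 47.8 in the microglial and 5.34, 6.65 and 1.59 in the neural libraries. The order endothelium, mural cells, then the other 2 held in every library, and microglia and neural cells overlapped. The endothelial mean was 9.16 above the mean of the rest (SE 0.76, limma adjusted p = 7.04e-06). The mural mean was 21.1-fold below the endothelial one (SE of the log2 difference 0.93, limma adjusted p = 0.00513). It was 6.36 above the microglial one (SE 0.93, limma adjusted p = 0.000279) and above the neural one, with -7.92 for neural against mural (SE 0.93, limma adjusted p = 3.78e-05). Against the mean of the other populations the mural difference was 3.29, a 9.81-fold difference just under the 10-fold limit (SE 0.76, limma adjusted p = 0.00546). Without the 3 neural libraries it was 0.98 (limma adjusted p = 0.440), since the endothelial libraries then make up more of the rest.

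Flt4 (ENSMUSG00000020357, GRCm38 chr11:49609263-49652739, plus strand) followed Flt1 at a lower level. It gave 4651, 5549 and 4131 normalized counts in the endothelial, 204, 135 and 332 in the mural, 0, 2.37 and 13.8 in the microglial and 2.67, 4.98 and 0.528 in the neural libraries. The endothelial and mural libraries did not overlap with each other or with the rest. The endothelial mean was 8.45 above the mean of the others (SE 0.74, limma adjusted p = 1.01e-05), and the mural mean lay below the endothelial one, at -4.50 (SE 0.91, limma adjusted p = 0.00380). The mural mean was 5.83 above the microglial one (SE 0.91, limma adjusted p = 0.000425). Its mural call against the mean of the rest (2.45, limma adjusted p = 0.0213) was lost without Mu-340 (limma adjusted p = 0.0597), without Mu-346 (limma adjusted p = 0.0880) and without the neural libraries (0.67, limma adjusted p = 0.572). The 5 lymphatic markers summed to 92.0 to 673 normalized counts in the endothelial libraries, lower than in the other populations. Their sum was highest in neural libraries (8753 to 11491), so the list is not specific to lymphatic endothelium here. Ccl21a among them was listed at 0 in all 12 libraries.

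Kdr (ENSMUSG00000062960, GRCm38 chr5:75932827-75978458, minus strand) was the most abundant receptor of endothelium per kilobase. It gave 31485, 44693 and 35589 normalized counts in the endothelial, 492, 249 and 477 in the mural, 132, 319 and 271 in the microglial and 86.8, 75.9 and 76.6 in the neural libraries. Mural and microglial libraries overlapped, and all endothelial ones were far above. The endothelial mean was 7.58 above the mean of the rest (SE 0.29, limma adjusted p = 4.39e-08). Unlike Flt1 and Flt4, Kdr was not called between mural cells and microglia (0.78, SE 0.36, limma adjusted p = 0.111).

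Across pairs of populations, 5 of the 7 members were called between neural and mural cells (54.6% of all genes tested), 5 between neural and endothelial cells (57.7%) and 3 between neural cells and microglia (59.8%). Between mural and endothelial cells 5 were called (27.8%), between mural cells and microglia 3 (38.0%), and between endothelial cells and microglia 5 (32.4%). With 7 members these counts only describe the set.

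The promoters of 2 receptors and of the most widespread ligand are shown because the receptors rose together in endothelium and Vegfb did not. The sequences are the 250 bases before the RefSeq start (RefSeq, GRCm38.p6), 5′ to 3′ on the gene's strand, for Flt1 at chr5:147726012-147726261, Kdr at chr5:75978456-75978705 and Vegfb at chr19:6987652-6987901, all on the minus strand. Capitals mark GGGCGG (GC box) and AGGAA (a form of the GGAA core read by ETS factors) on either strand, which shared no base.
Flt1: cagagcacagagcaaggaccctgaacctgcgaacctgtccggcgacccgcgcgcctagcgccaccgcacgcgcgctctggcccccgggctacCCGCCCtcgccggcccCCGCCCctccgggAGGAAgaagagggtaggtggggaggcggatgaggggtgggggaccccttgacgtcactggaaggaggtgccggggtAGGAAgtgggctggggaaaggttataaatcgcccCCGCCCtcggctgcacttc
Kdr: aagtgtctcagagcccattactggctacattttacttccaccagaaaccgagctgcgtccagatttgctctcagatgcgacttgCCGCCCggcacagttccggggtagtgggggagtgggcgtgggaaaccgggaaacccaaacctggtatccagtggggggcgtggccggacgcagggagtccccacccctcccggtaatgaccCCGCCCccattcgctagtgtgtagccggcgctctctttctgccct
Vegfb: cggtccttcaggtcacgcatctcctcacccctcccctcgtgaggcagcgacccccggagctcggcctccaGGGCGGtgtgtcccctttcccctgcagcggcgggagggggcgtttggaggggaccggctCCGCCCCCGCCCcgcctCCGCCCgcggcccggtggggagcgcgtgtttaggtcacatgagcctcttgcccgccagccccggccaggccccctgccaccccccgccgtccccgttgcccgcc
All 7 members matched the table. GGGCGG occurred 3 times in the Flt1 window, 2 times in that of Kdr and 4 times in that of Vegfb. It was present in 7 of the 7 first windows of the members and in 32.7% of all 32851 windows of the same length, beside a GC content of 70.4%, 61.6% and 76.4% in Flt1, Kdr and Vegfb and a median of 52.4% over all windows. AGGAA was present in Flt1 and Vegfa only (60.3% of all windows) and TATAAA in Flt1 only (12.4%). ACGTG, a form of the core of the hypoxia response element, was present in 0 of 7 (16.6%). Only these exact strings were searched, so other forms of the ETS and hypoxia cores, which the windows may hold, were not counted. The matches describe the letters in the window. The windows of Pgf and Flt4 lie within exons that GENCODE gives to the same gene and are not printed.

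The receptor make-up differed between endothelium and mural cells. Per kilobase, Kdr made up 62.3% ± 3.41 of the 3 receptors in endothelium, Flt1 28.8% ± 2.999 and Flt4 8.81% ± 0.71. In mural cells Flt1 came first with 56.4% ± 8.37, before Kdr with 27.2% ± 4.93 and Flt4 with 16.4% ± 4.99. The summed receptor level was 6591 ± 882 per kilobase in endothelium and 162 ± 30.04 in mural cells. The log2 ratio of Flt1 to Kdr counts was 1.63 ± 0.47 in mural cells (1.34 to 2.17) and -0.54 ± 0.23 in endothelium (-0.75 to -0.29), so that the 2 groups did not overlap. The difference of 2.17 had an exact two-sided permutation p of 0.1, the smallest that 3 against 3 libraries allow. The ratio of Flt4 to Kdr also differed, by 2.07 (exact permutation p = 0.1, n = 3), and that of Flt4 to Flt1 by -0.10 (exact permutation p = 0.8, n = 3).

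Set beside endothelial markers, Flt1 and Flt4 stood higher in the mural libraries than most. The mural mean of Flt1 was 4.75% of the endothelial mean (4.42% to 5.09% over the mural libraries), that of Flt4 4.68% (2.82% to 6.94%) and that of Kdr 1.09% (0.668% to 1.32%). Pecam1 and Icam2 encode the proteins of the endothelial sort, and stood at 0.252% and 1.01%. Cldn5 and Cdh5, a tight and an adherens junction gene, stood at 0.157% and 0.236%, Erg at 0.645%, Tie1 at 0.920% and Cd93 at 1.43%. Egfl7 stood at 4.23%, Ramp2 at 25.6% and Esam at 32.8%, so that 8 of the 10 markers had a lower mural share than the lowest library of Flt1 and Flt1's own mean lay between those of Egfl7 and Ramp2. In all, endothelial markers summed to 6734 to 9895 normalized counts in mural libraries, with 0 of 10 at 0.

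**Figure D3:**
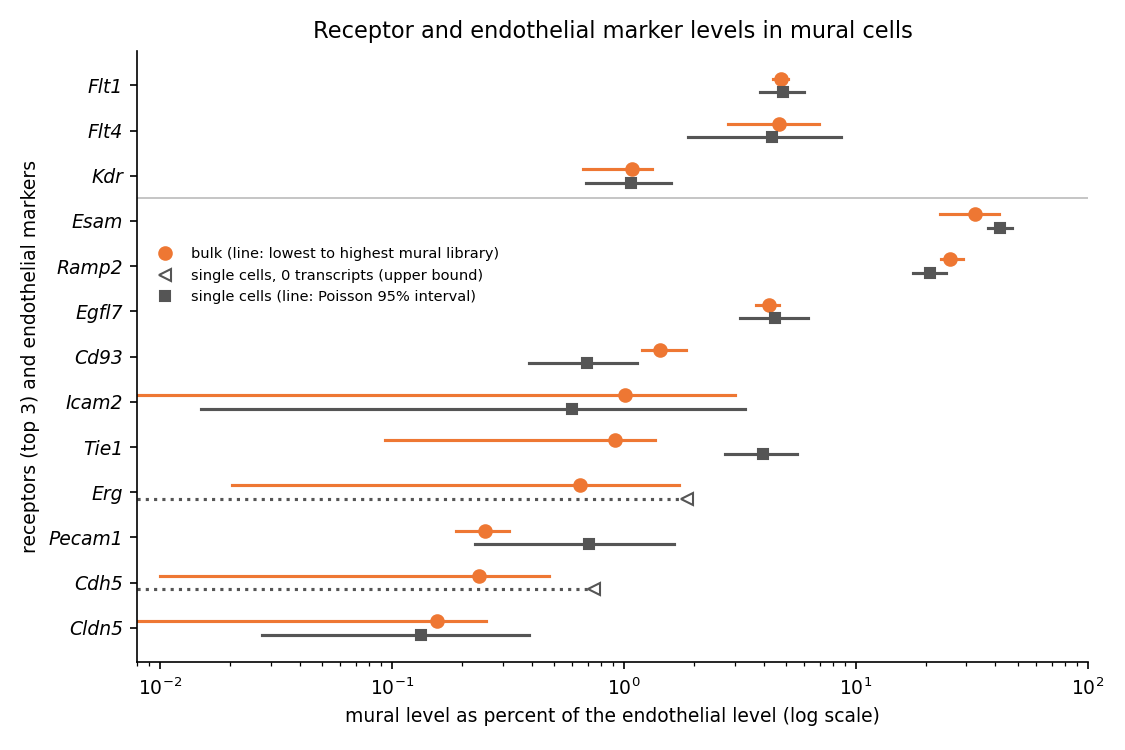
Level in mural cells as percent of the level in endothelial cells (log axis) for the 3 receptors and the 10 endothelial markers, in bulk (circles, line from the lowest to the highest mural library) and in single cells (squares, line a Poisson 95% interval). Flt1 and Flt4 lie near 4.7% in bulk, Kdr near 1.1%, and Pecam1, Cdh5 and Cldn5 below 0.3% in bulk.

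The genes most like each member were taken by Pearson's r of log2(normalized count + 1) over the 12 bulk libraries, which fall into 4 populations, so r describes the shared pattern and carries no p. For Flt1 these were Ppfibp1 (r = 0.992), Adm (0.981), which encodes the peptide adrenomedullin, and Gm14162 (0.980). Adm stood at 2918 normalized counts in endothelium and 274 in mural cells, and at 2.70 in neural cells and 14.8 in microglia. For Flt4 they were Gm14162 (0.987), Mmrn2 (0.985), an endothelial matrix glycoprotein, and Ppfibp1 (0.978). Mmrn2 stood at 7914 in endothelium, 318 in mural cells and under 6 in the others. For Vegfb they were Pfkfb4 (0.980), Sema4a (0.971) and Sfmbt1 (0.970), all lowest in endothelium. For Pgf they were Zfr (0.989), Nup93 (0.944) and Itih5 (0.942). Zfr stood at 9749 in mural cells and at 4918 to 5423 elsewhere, and Nup93 at 3840 and at 1787 to 1983, whereas Itih5 stood at 1467 in mural cells and at 99.0 or less in the others.

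A list of 20 other genes of the pathway was followed, of which 18 passed the filter on low values. In endothelium limma called 11 higher and 6 lower, with a median difference of 1.30 beside -0.12 over all genes tested, of which 19.7% were higher and 22.4% lower. In neural cells 6 were higher and 6 lower (32.9% and 31.2% of all genes), in mural cells 4 higher and 6 lower (19.3% and 22.7%) and in microglia 2 higher and 8 lower (23.4% and 22.3%). The co-receptor Nrp1, which helps KDR bind VEGF-A, was present in every population, at 6742 ± 1440 normalized counts in mural, 5523 ± 399 in endothelial, 4962 ± 896 in microglial and 2280 ± 186 in neural libraries. It was called lower in neural cells than in each of the others, and mural and endothelial cells did not differ past the threshold (0.27, limma adjusted p = 0.294). Nrp2, a co-receptor of FLT4, was highest in neural cells (4629 ± 108), then in endothelium (1896 ± 159.7) and microglia (1076 ± 585), and lowest in mural cells (120.2 ± 54.9), where it was called lower than in each of the others. In the single cells described below Nrp2 stood instead highest in the endothelial gate, at 151 ± 17.7 CPM (SD over 3 plates), against 93.9 ± 57.4 in the neural, 72.7 ± 5.99 in the microglia and 43.5 ± 22.5 in the mural gate. There edgeR called it higher in the endothelial gate than the mean of the other gates and not in the neural one, and the neural plates (32.8 to 147) overlapped the endothelial ones (137 to 171). Ccbe1 and Adamts3, which help to process VEGF-C, were listed at 0 in all endothelial libraries. Ccbe1 stood at 101.2 ± 15.3 in neural and 202 ± 90.4 in mural cells, and Adamts3 at 633 ± 55.2 in neural cells. Vegfd lay under the filter, between 0 and 42.5 normalized counts.

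In wild-type single cells the same genes were counted by sort gate, which allows the cells behind a bulk level to be seen. Median transcripts per cell were 7717 in the neural, 6885 in the mural, 6408 in the endothelial and 10761 in the microglial gate. Transcripts were summed per plate and gate and tested with edgeR's quasi-likelihood test over 9281 genes. Kdr and Flt1 were called over 10-fold in the endothelial gate (3.02% of all genes), Pgf in the mural gate (2.96%), Vegfa in the neural gate (5.16%) and no member in the microglia gate (4.61%), where DESeq2 gave 0 as well and Vegfb was the only member higher with an unadjusted edgeR p under 0.05 (4.96e-08). The neural call of Vegfa passed the test but not the 10-fold limit with DESeq2 (log2 3.16, DESeq2 adjusted p = 0.000319) and without plate 2 (log2 3.27, edgeR adjusted p = 0.00222). Flt4 and Vegfc were too sparse to pass the filter of edgeR and have no test here. Intervals and limits given for cells cover counting error only. No doublets were called or removed.

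**Figure D4:**
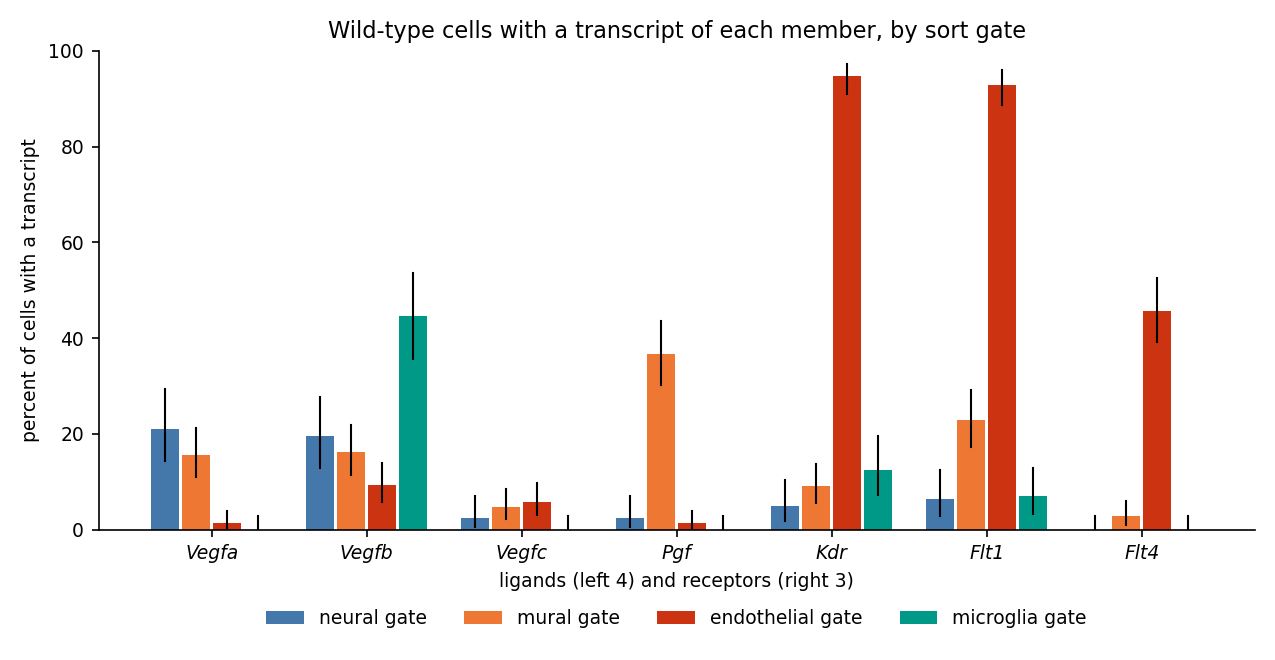
Percent of wild-type cells over 1500 transcripts with a transcript of each member, by sort gate, with exact 95% binomial intervals. Kdr and Flt1 reach 94.7% and 92.9% of the endothelial gate, Pgf stands out in the mural gate at 36.7%, Flt1 in the mural gate reaches 22.9% and Vegfb in the microglia gate 44.5%.

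In the endothelial gate nearly all cells held both main receptors. Kdr was found in 213 of 225 cells (94.7%, exact 95% interval 90.9% to 97.2%), Flt1 in 209 (92.9%, 88.7% to 95.9%) and Flt4 in 103 (45.8%, 39.1% to 52.5%). Kdr and Flt1 occurred together in 205 cells, all 3 receptors in 44.9%, and 8 cells held none. Flt1 stood at 1193, 1204 and 642 CPM on plates 1, 2 and 3, Kdr at 1521, 1416 and 727, and Flt4 at 117, 132 and 14.2. Plate 3, whose gate held mural markers, was lowest for each. edgeR gave a log2 fold change of 6.84 for Kdr (SE 0.30, adjusted p = 6.55e-27) and 6.03 for Flt1 (SE 0.30, adjusted p = 3.96e-25) against the mean of the other gates. Ligands were rare there: Vegfb occurred in 21 cells, Vegfc in 13, Pgf in 3 and Vegfa in 3. All 3 cells with Vegfa lay among the 7 neural-like cells of this gate, and its 203 endothelial-like cells held 0 Vegfa transcripts. Of the 3 cells with Pgf, 1 was mural-like.

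In the mural gate Flt1 was found in 48 of 210 cells (22.9%, 17.4% to 29.1%), against 8 of 123 neural (6.50%) and 9 of 128 microglial cells (7.03%), which were sequenced at least as deeply. With each cell thinned to 1500 transcripts the shares were 8.10% (4.79% to 12.6%), 3.25% (0.893% to 8.12%) and 2.34% (0.486% to 6.70%). The level was 55.4, 62.6 and 0 CPM on plates 1, 2 and 3, where the 0 in 10 cells of plate 3 allows a level of up to 41.2. edgeR called the mural gate above the microglia gate (log2 2.49, SE 0.56, adjusted p = 0.000242) and above the neural one (-2.19 for neural against mural, SE 0.55, adjusted p = 0.00112). Against the mean of the other gates, which holds the endothelial one, the mural difference was 0.07 (SE 0.30, edgeR adjusted p = 0.922). Flt4 occurred in 6 of the 210 cells. Of the 48 cells with Flt1, 47 lay in mural-like clusters (clusters made without the 7 members and named from fixed markers), 1 held a transcript of Pecam1, Cldn5 or Cdh5, and 7 held Kdr. Of the 162 mural-gate cells without Flt1, 5 held one of those 3 endothelial transcripts and 12 held Kdr. Pecam1, Cldn5 and Cdh5 were rare in the whole mural gate, with 5, 3 and 0 transcripts, as were Icam2 (1) and Erg (0). Other endothelial markers were not: Cd93 gave 15, Tie1 33, Egfl7 37, Ramp2 153 and Esam 282 transcripts. These were not split by Flt1. By cluster, the wild-type Flt1 level lay between 44.7 and 69.0 CPM in all 5 mural-like clusters, with intervals that overlapped.

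Transcripts of the same receptors were also counted at barcodes that no well used, and how they came there was not tested. The 1056 unused barcodes of the wild-type tables held 44 Flt1 and 39 Kdr transcripts, or 0.0417 Flt1 per barcode against 0.419 per mural-gate cell, 0.0894 per neural and 0.0781 per microglial cell. In CPM the order was the reverse, with Flt1 at 406 and Kdr at 360 at unused barcodes, against 56.7 and 15.5 in the mural gate. Flt1 made up 53.0% (exact interval 41.7% to 64.1%) of the Flt1 and Kdr transcripts at unused barcodes, 44.8% (43.3% to 46.3%) in the endothelial gate and 78.6% (69.8% to 85.8%) in the mural gate, with 88 Flt1 and 24 Kdr transcripts. As percent of the endothelial gate, the mural gate held 4.83% of the Flt1 level (Poisson interval 3.87% to 5.95%), 4.36% of Flt4 (1.88% to 8.59%), 1.07% of Kdr (0.685% to 1.59%), 0.705% of Pecam1 (0.229% to 1.65%) and 0.133% of Cldn5 (0.0275% to 0.389%). Tie1 stood at 3.97% (2.73% to 5.57%), Egfl7 at 4.50% with an interval from 3.17%, Ramp2 at 20.8% and Esam at 41.8%, so that the intervals of Tie1 and Egfl7 overlapped that of Flt1 while Ramp2 and Esam lay above it. Cd93 stood at 0.694% and Icam2 at 0.597%, and Cdh5 and Erg gave 0 transcripts in the mural gate.

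Pgf was found in 77 of 210 mural-gate cells (36.7%, 30.1% to 43.6%), all of them in mural-like clusters. It occurred in 3 of 123 neural, 3 of 225 endothelial and 0 of 128 microglial cells, the last of which allows a share of cells with a transcript of up to 2.34%. Its mural level was 88.7, 78.0 and 54.9 CPM on plates 1, 2 and 3 (edgeR log2 5.79 against the mean of the other gates, SE 0.52, adjusted p = 5.38e-14). Against the endothelial gate alone it was log2 4.73 (SE 0.62, edgeR adjusted p = 9.89e-09). With 0 transcripts in microglia, the fitted values of Pgf and Vegfa against the mean of the other gates depend on the prior count of edgeR. Pgf and Flt1, a ligand and its receptor, occurred together in 20 of the 210 cells, and Flt1 without Kdr in 41. Among wild-type mural-like clusters Pgf ran from 46.0 to 98.6 CPM, lowest in cluster 11, which had the fewest transcripts per cell and only 4 mural markers.

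Vegfb was highest in the microglia gate, at 66.6, 65.3 and 59.1 CPM on plates 1, 2 and 3, and occurred in 57 of 128 cells (44.5%, 35.7% to 53.6%). These cells were also the deepest, and thinned to 1500 transcripts 6.25% of microglial and 5.69% of neural cells held Vegfb, on 8 and 7 cells. In levels, the plates did not overlap with those of the neural gate (28.8, 37.9 and 32.8) or the mural gate (30.1, 20.1 and 27.5). edgeR called microglia above the mean of the other gates (log2 1.83, SE 0.29, adjusted p = 4.08e-07), above neural cells (-1.25 for neural against microglia, adjusted p = 0.00436) and above mural cells (-1.69 for mural against microglia, adjusted p = 0.000109). The endothelial gate was lowest (15.6, 9.43 and 0, log2 -1.56 against the rest, adjusted p = 0.000934), a call that was lost without plate 1 (adjusted p = 0.103) or plate 2 (adjusted p = 0.272). Mural against endothelial cells was not called (log2 0.86, edgeR adjusted p = 0.216). The microglia of plate 3 were 6 cells. In bulk the neural and microglial levels of Vegfb were not told apart, and the bulk kits differed between these populations. Microglia held no Vegfa, Vegfc, Pgf or Flt4 transcript in 128 cells.

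Vegfa was found in 26 of 123 neural (21.1%), 33 of 210 mural (15.7%), 3 of 225 endothelial and 0 of 128 microglial cells. The neural level was 35.4, 35.5 and 32.8 CPM and the mural one 34.8, 23.6 and 41.2, which overlapped (edgeR log2 0.26 for neural against mural, SE 0.43, adjusted p = 0.703). In bulk the same contrast was 4.44. Both gates were called above the mean of the others, neural by log2 3.61 (SE 0.58, edgeR adjusted p = 6.01e-07) and mural by 3.26, which is 9.61-fold (SE 0.56, edgeR adjusted p = 5.12e-06). Of the 45 transcripts in the mural gate, 14 lay in its 15 neural-like cells, at 134 CPM, and 31 in its 194 mural-like cells, at 21.5 CPM. Vegfc was sparse in every gate, with 18 transcripts in the endothelial, 13 in the mural, 3 in the neural and 0 in the microglia gate.

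Among wild-type neural-like cells, the level of Vegfa ran over a wide range between clusters, given with no test. It was 233 CPM (Poisson interval 149 to 345.9) in the 11 cells of cluster 14, of which 7 came from the gate of medium or low PDGFRb, led by radial glial genes such as Fabp7, Slc1a3, Hes5 and Tnc, and 75.1 (50.3 to 108) in the 48 cells of cluster 4, with Sox2 among its markers. In clusters 5 and 7, led by neuronal genes, it was 20.2 (8.12 to 41.6) and 32.4 (16.8 to 56.7). Vegfb followed the same order, with 96.9 (46.5 to 178), 41.4 (23.7 to 67.3), 23.1 (9.97 to 45.5) and 24.3 (11.1 to 46.2) in clusters 14, 4, 5 and 7. Without the cells of that gate, an alternative chosen after seeing the data, cluster 14 kept 4 cells, with Vegfa at 127 CPM (41.2 to 296) on 5 transcripts, and cluster 4 kept 45 cells, with Vegfa at 69.9 (44.8 to 104).

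On the Mof knockout plates, Kat8, which encodes MOF, stood at 12.7, 10.4 and 11.2 CPM on plates 4, 5 and 6, against 16.3, 17.6 and 17.5 on the wild-type plates. Whether these transcripts cover the deleted part is not known here. Within classes it was not lower on every knockout plate. Neural-like cells held 5.06, 7.65 and 26.1 on plates 4, 5 and 6 against 24.7, 28.1 and 10.2 on plates 1, 2 and 3. Mural-like cells held 14.9 on plate 4 against 15.2, 17.7 and 0 on plates 1, 2 and 3 (11 cells on plate 3), microglia-like cells 13.7 on plate 5 against 11.5 and 15.5, and endothelial-like cells 9.33 on plate 6 against 15.05 and 11.8. These levels rest on 33 transcripts or fewer each. The knockout plates held different cells: plate 4 was mostly mural-like (272 of 337 cells), plate 6 mostly endothelial-like (267 of 350) and plate 5 held neural-like (112) and microglia-like (79) cells, so that for mural-like, endothelial-like and microglia-like cells 1 plate gives the knockout value and the genotypes were not tested against each other. In the 272 mural-like cells of plate 4, Pgf stood at 110 CPM (97.0 to 125, 140 cells) against 96.5, 80.3 and 73.0 in the mural-like cells of wild-type plates 1, 2 and 3, the last of which rests on 11 cells. Flt1 stood there at 68.1 (57.6 to 79.8, 81 cells) against 62.7, 64.9 and 48.7 (on plate 3 these are 4 transcripts in 2 cells sorted in the endothelial gate), Flt4 at 5.86 against 8.47, 2.36 and 12.2, and Kdr at 25.7 (19.5 to 33.3) against 16.9, 21.2 and 12.2. Vegfb stood there at 39.2 (31.4 to 48.3, 65 cells) against 28.8 (16.8 to 46.1), 20.1 (11.7 to 32.1) and 24.3 (2.95 to 87.9), above each wild-type plate with intervals that overlapped. In the 267 endothelial-like cells of plate 6, Flt1 stood at 1303 against 1310 and 1282, Flt4 at 125 against 129 and 137, and Kdr at 1416 (1356 to 1477) against 1674 and 1482. In the 79 microglia-like cells of plate 5, Vegfb stood at 73.3 (55.8 to 94.6) against 64.5 and 65.3, and in the endothelial-like cells of plate 6 at 7.33 (3.66 to 13.1) against 13.9 and 10.1. The interval of Kdr in endothelial-like cells lay below that of plate 1 (1589 to 1763) and overlapped that of plate 2 (1386 to 1584). Cluster 3, which had the lowest Kdr level and the fewest transcripts per cell of the endothelial-like clusters, held 98 of these 267 cells, against 12 of 110 on plate 1 and 23 of 88 on plate 2. Kdr stood at 1084 in wild-type and 1099 in knockout cells of cluster 3, at 1736 and 1766 in cluster 2, at 1446 and 1407 in cluster 6, and at 1717 (1584 to 1860) and 1398 (1263 to 1546) in cluster 8. Flt1 stood at 1389 (1298 to 1483) in wild-type and 1646 (1525 to 1775) in knockout cells of cluster 2, without overlap of the intervals, at 883 and 930.04 in cluster 3, at 1079 (972 to 1197) and 1256 (1146 to 1375) in cluster 6, and at 1533 and 1445 in cluster 8. Vegfc stood in the endothelial-like cells of plate 6 at 22.0 (15.1 to 30.9, 23 cells) against 15.05 (8.01 to 25.7) and 5.06 (1.04 to 14.8), so that its interval lay above that of plate 2 and overlapped that of plate 1. In cluster 2 Vegfc stood at 63.3 (41.3 to 92.7, 16 of 76 cells) in knockout and 19.0 (9.83 to 33.2, 8 of 88 cells) in wild-type cells, while in clusters 3, 6 and 8 the knockout levels were 9.001, 2.64 and 7.27 and the wild-type ones 6.09, 0 and 8.45. The other intervals of the single-plate classes given here overlapped with those of each wild-type plate with at least 10 such cells, and these differences carry no replicate check.

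**Figure D5:**
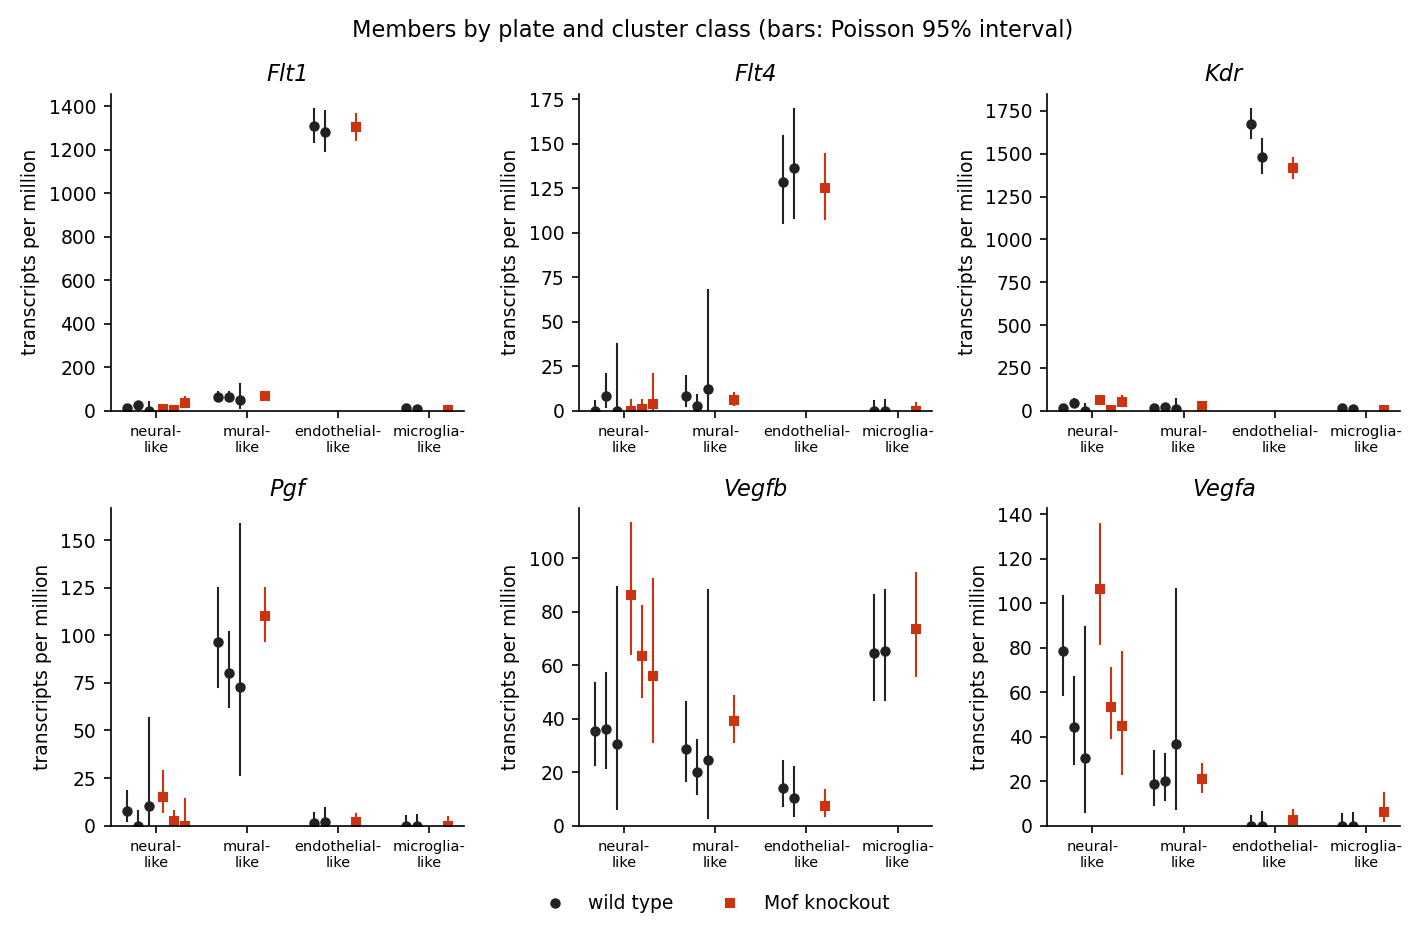
Transcripts CPM of 6 members by plate and cluster class, wild type (circles) and Mof knockout (squares), with Poisson 95% intervals for counting error and only classes of at least 10 cells on a plate. Vegfb in neural-like cells is the panel where all 3 knockout plates (55.9 to 86.0) lie above all wild-type ones (30.6 to 36.2).

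Neural-like cells were present on all 6 plates and were the only class with replicates in both genotypes. Vegfb stood at 86.0, 63.4 and 55.9 CPM on knockout plates 4, 5 and 6 and at 35.5, 36.2 and 30.6 on wild-type plates 1, 2 and 3, without overlap. edgeR gave a log2 fold change of 1.01 (SE 0.32, approximate 95% interval 0.39 to 1.64), which was not called (unadjusted p = 0.0116, adjusted p = 0.907). The approximate intervals here use a normal quantile and are too narrow for 3 plates per genotype. Vegfa stood at 106, 53.6 and 44.7 on the knockout and at 78.6, 44.2 and 30.6 on the wild-type plates, which overlapped (edgeR log2 0.34, SE 0.43, approximate 95% interval -0.49 to 1.18, adjusted p = 0.937). The sign of this Vegfa difference turned without plate 4. The wild-type cells here include the 15 of the gate of medium or low PDGFRb, 11 on plate 1 and 4 on plate 2. Without them, Vegfa stood at 53.7, 41.1 and 30.6 and Vegfb at 30.4, 36.8 and 30.6 on the wild-type plates, and edgeR gave log2 0.67 for Vegfa (adjusted p = 0.804) and 1.09 for Vegfb, again not called, with 0 genes called and 426 at an unadjusted p under 0.05. Kdr, the only other member that passed the filter, gave log2 0.49 (SE 0.92, edgeR adjusted p = 0.953). Of the 7619 genes tested, edgeR called 0 (0%), with 354 at an unadjusted p under 0.05, and DESeq2 called 4. Without a filter on low counts edgeR called 81 of 18932 genes, without plate 4 it called 2 and without plate 5 it called 1, with no member among them. The neural-like cells differed in make-up between plates: clusters with Sox2 among their markers held 96.7% of them on plate 4, 44.6% on plate 5 and 26.3% on plate 6, against 48.8%, 33.3% and 37.5% on plates 1, 2 and 3. Within cluster 4, Vegfb stood at 100.2 (73.3 to 134) in 50 cells of plate 5 and at 34.9 (14.0 to 71.9) and 53.3 (21.4 to 110) in 26 and 16 cells of wild-type plates 1 and 2. Within clusters 5 and 7 the knockout levels of Vegfb, 23.6 and 25.8, were close to the wild-type ones, 23.1 and 24.3. In cluster 14 they were 83.7 against 96.9. The part of cluster make-up in the plate difference was not tested.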

How the data were processed

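Bulk RNA-seq of 4 sorted E14.5 populations and mCEL-Seq2 single-cell data were used. The authors deposited bulk normalized counts, a signal in which reads per gene are divided by a library size factor. The submitters' processing notes name STAR, featureCounts, DESeq2 and, with build mm10, BWA 0.6.2-r126. All 124078 low values tested were whole reads within 0.01 once divided by the value of 1 read. The deposited single-cell tables hold transcript numbers corrected for identifier collisions, values that need not be whole. The deposited well table gives sort gates. Bulk values were tested with limma 3.58.1 on log2(normalized count + 1) over genes with a mean of at least 10 in all 12 libraries. Cells over 1500 transcripts were summed per plate and gate (with at least 10 cells for a class on a plate), rounded and tested with edgeR 4.0.16. An SE beside an edgeR value is the log2 fold change divided by the square root of the F statistic. p-values were Benjamini-Hochberg adjusted over all genes tested, with a threshold of 0.05. Clusters came from scanpy 1.11.5 (2000 variable genes without the members, 30 components, 15 neighbours, Leiden resolution 1) and were named from at least 3 fixed markers. Coordinates are from GENCODE on GRCm38, where no annotated gene overlaps a member. The tests were tested on simulated data. The genes named are the 7 members, 5 genes of a pathway list, the 3 genes most correlated with each of Flt1, Flt4, Vegfb and Pgf, cell type markers and Kat8. Leading genes of clusters were chosen after their values were seen. Members and lists were chosen with earlier results of these data known. Replicate numbers were not used as pairs in the main fit, since no source used here says that a number marks a brain. Residuals of same-numbered libraries were at most weakly correlated. Alternatives were pseudocounts of 0.5 and 10, no filter, quantile normalization, edgeR and DESeq2 1.42.0, a replicate block, each library or plate left out, thinning to 1500 transcripts, all wells or cells over 3000 transcripts, classes from marker scores and, added after seeing the data, the knockout test without the gate of medium or low PDGFRb.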

Additional observations from a re-analysis of the deposited data

Results flagged for a closer look

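Members also gave signal in barcodes and cells that entered no comparison between gates. At the 1056 barcodes of the wild-type tables that no well used, 44 transcripts of Flt1, 39 of Kdr and 4 of Pgf were counted. They are listed because they passed a floor of 3 counts, which is not a test. These barcodes held a median of 95.02 transcripts, and Vegfa, Vegfb, Vegfc and Flt4 gave 1 or 2 each.

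Vegfa stood at 146 CPM (Poisson interval 93.7 to 218) in 23 cells of plates 1 and 2 sorted with medium or low PDGFRb signal, a gate left out of the comparisons between gates (its cells entered the cluster classes), against 35.2 in the neural and 29.0 in the mural gate. It occurred in 9 of the 23 cells, 7 of 14 on plate 1 and 2 of 9 on plate 2. All 9 lay in neural-like clusters, which held 15 of the 23 cells. Neural markers summed to 8953 and mural markers to 3114 CPM in this gate.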

How the results depend on the processing

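Of 311 alternative values for counts and shares, 275 stayed within the range set for them, and of 531 for single members 506 kept direction and call. The mural count in bulk (1, Pgf) became 2 with Flt1 at a pseudocount of 0.5 and under quantile normalization, 3 with Flt4 over 4-fold, and 1 to 2 with a library left out (2 without N-340, N-343, Mu-343, Mi-343 or Mi-346). The neural gate count (1, Vegfa) was 0 with DESeq2 and 0 to 1 with a plate left out (0 without plate 2). The mural gate count (1) was 2 with Vegfa without a filter, with all wells or over 4-fold, and 1 to 2 with a plate left out (2 without plate 2 or 3). Thinned to 1500 transcripts, the shares in the endothelial gate were 81.3% for Kdr, 70.7% for Flt1, 17.3% for Flt4 and 2.67% for Vegfc. In the mural gate they were 8.10% for Flt1 and 9.52% for Pgf, in the microglia gate 6.25% for Vegfb and in the neural gate 4.88% for Vegfa. With a plate left out, Flt1 in the mural gate ran from 16.2% (without plate 2) to 27.0%, and Vegfc in the endothelial gate from 1.90% (without plate 1) to 8.27%. Thinned knockout shares were 9.93% for Flt1 and 16.5% for Pgf in mural-like cells, 10.1% for Vegfb in microglia-like cells, and 83.1%, 78.7% and 14.98% for Kdr, Flt1 and Flt4 in endothelial-like cells, where classes from marker scores gave 92.8% for Kdr. In neural-like cells they were 16.4% and 7.14% for Vegfa and 9.84% and 9.82% for Vegfb on plates 4 and 5. Vegfb in neural cells against microglia reversed to -0.46 under quantile normalization, to -0.0011 with edgeR and -0.046 with DESeq2 on whole reads, and ranged from -0.20 to 0.35 with a library left out. Vegfa in the knockout (0.34) ranged from -0.15 (without plate 4) to 0.77 (without plate 1) with a plate left out, and was 0.67 without the cells of the gate of medium or low PDGFRb. A replicate block left the Vegfc difference in endothelium at 3.91 and brought it under the threshold (limma adjusted p = 0.0366), so the endothelial count became 4, as it did without Mu-340 or Mi-340; a pseudocount of 10 also called Vegfc (2.69, limma adjusted p = 0.0202). Vegfb in neural cells was called with a pseudocount of 10 (limma adjusted p = 0.0457), and in mural cells against microglia without Ec-343 (limma adjusted p = 0.0269). Residual correlations of same-numbered libraries were small (-0.054 to 0.080, 0 of 18 pairs over 0.1), but 8 of 12 libraries were closest to their own number. Whether a number marks a brain was not tested. For these changes the cause was not tested. Cell numbers limit plate 3 (10 to 14 cells in 3 of its gates and 6 in the microglia gate), and low transcript counts limit Flt4 and Vegfc.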

Other observations

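Kdr was also found with little Flt1 in neural-like cells of knockout plate 4, in 19 and 4 of 61 cells. On the other knockout plates this was not seen, with Kdr in 3 and Flt1 in 4 of 112 cells of plate 5, and Kdr in 8 and Flt1 in 6 of 38 cells of plate 6. In cluster 15, led by Rspo1, Rspo2, Rspo3, Wnt8b and Lmx1a, 13 of 20 knockout cells held Kdr, at 154 CPM (Poisson interval 100.3 to 225), while 1 of the 20 held Flt1 and 0 held Flt4. All 20 came from plate 4, and only 7 wild-type cells fell into this cluster, too few for a level. In wild-type cluster 14 the level of Kdr, 184 CPM, came from 2 of 11 cells, 18 of the 19 transcripts lying in 1 cell sorted in the endothelial gate. No doublets were removed, and their part in this value was not tested. This cluster was singled out after its values were seen, and the difference between Kdr and Flt1 there was not tested.

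Across the mural-like clusters of the knockout plates, Pgf ran from 62.6 to 135 CPM and was highest in cluster 10, led by mitotic genes such as Plk1 and Cdc20, with 26 of 38 cells. The wild-type level of that cluster was 83.8 (46.9 to 138) in 21 cells. Flt1 was highest on knockout plates in cluster 12, led by replication genes such as Rrm2, at 112 (79.7 to 152) against 58.0 (31.7 to 97.3) in wild-type cells of the same cluster. Among endothelial-like clusters, Flt4 was lowest in cluster 3, at 66.9 (33.4 to 120) in wild-type and 87.8 (62.4 to 120) in knockout cells, and highest in cluster 8, at 175 (134 to 224) and 167 (122 to 223). Cluster 3 also had the fewest transcripts per cell of the endothelial-like clusters. The intervals cover counting error only, and cluster levels of cells from 1 to 3 plates carry no test.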
